A study of Mus musculus with 5 samples.

Results

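The genes described here are 9 transcription factors that build and maintain the microglial lineage: Spi1, Irf8, Sall1, Mef2a, Mef2c, Runx1, Maf, Ikzf1 and Fli1. They were chosen by name, as a list, from the 32285 genes in the files, and all 9 were found. The data were single-nucleus RNA sequencing (snRNA-seq) profiles of nuclei labelled as hippocampus and microglia, sorted for a DNA dye and against NeuN (neurons) and, per the study's methods, Olig2 (oligodendrocyte lineage). Of 9748 deposited nuclei, 9505 were kept, and 5378 of these resembled microglia and 343 border-associated macrophages, the macrophages of the meninges and perivascular spaces. The 5 libraries, 1 mouse each, comprised 2 from Tmem119-creERT2-cGaswt/R241E mice (R241E) and 3 from Tmem119-creERT2-cGaswt/wt mice (WT). Both genotypes carried the Tmem119-creERT2 driver, a tamoxifen-activated recombinase under the control of a microglial gene. Per the study's methods tamoxifen switched on the R241E allele of Cgas, which encodes a DNA sensor whose binding to nucleosomes the mutation weakens. The labels give no age for these mice. The study's methods put tamoxifen injection of the R241E line at an age counted in weeks. The labels also carry a text on H151 or DMSO injection of aged animals that is assigned to no sample. In the methods, the course of H-151 in aged mice is described apart from the R241E line. The study's results name heterozygous controls where its methods and the sample titles name wild type, and the titles were followed.

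Microglia arise from yolk sac progenitors and keep their identity through a small set of transcription factors. PU.1 (encoded by Spi1) opens myeloid enhancers and works with IRF8, RUNX1 and the ETS factor FLI1, Ikaros (Ikzf1) is a haematopoietic zinc finger protein, MEF2A, MEF2C and c-MAF act in mature microglia, and SALL1 separates microglia from other macrophages. Interferon signalling reaches DNA in part through STAT dimers, which bind gamma-interferon activated sites.

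The windows around the transcription starts of the members are shown first because IRF8 is both a lineage factor and an interferon-inducible gene. RefSeq (GRCm38.p6, the assembly that mm10 also names) gave windows of 300 bases for 6 of the 9 genes, all but Spi1, Maf and Fli1, and 13 windows in all. On both strands, 4 motifs were searched: the gamma-interferon activated site TTCNNNGAA, the core of the interferon-stimulated response element (GAAA, any 2 bases, GAAA), the ETS-IRF composite element (GGAA, any 2 bases, GAAA), which shares its second part with that core, and the PU-box GAGGAAGT. The first matched 3 of the 13 windows, in Irf8, Mef2c and Ikzf1, against 8.30% of all 32851 windows in the table. The other motifs matched none of the 13, against 3.44%, 2.71% and 3.20% of all windows. Letters outside these windows were not searched, and a match is not evidence of binding. The windows of Irf8 (chr8:120736108-120736407, plus strand) and Mef2c (chr13:83503784-83504083, plus strand) are printed with the matches to TTCNNNGAA in capitals. The Irf8 matches begin 171 and 153 bases before the start, and the Mef2c match begins 157 bases before it.
Irf8: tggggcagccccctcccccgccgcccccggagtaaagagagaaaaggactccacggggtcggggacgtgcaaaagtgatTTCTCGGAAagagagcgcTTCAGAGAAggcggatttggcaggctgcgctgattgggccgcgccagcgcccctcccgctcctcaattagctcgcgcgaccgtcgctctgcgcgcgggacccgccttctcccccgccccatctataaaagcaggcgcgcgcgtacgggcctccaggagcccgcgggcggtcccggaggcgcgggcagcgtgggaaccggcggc
Mef2c: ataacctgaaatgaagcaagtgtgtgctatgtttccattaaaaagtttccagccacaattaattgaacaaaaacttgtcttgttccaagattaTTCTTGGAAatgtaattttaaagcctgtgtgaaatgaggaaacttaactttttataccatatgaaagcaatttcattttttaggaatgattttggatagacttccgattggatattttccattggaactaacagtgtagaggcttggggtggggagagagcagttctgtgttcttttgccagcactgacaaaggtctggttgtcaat

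Values below are counts of unique molecular identifiers (UMIs) summed per class and library and given per 1000000 UMIs of that sum (CPM). They measure nuclear RNA, not protein, and are compared between classes and genotypes but not between genes, since the 3′ counts are not scaled to length. The libraries held 1381 to 2490 deposited nuclei and 4183709 to 10130667 UMIs. Microglia made up 41.95% and 38.61% of the kept nuclei in R241E and 60.37%, 74.81% and 64.56% in WT. The part of this difference in make-up in the member values was not tested. Classes were named from marker genes after clustering without the members and the other listed factors. The labelled cell type was borne out by its markers: in microglia P2ry12 lay at 1153 to 1370 CPM and Tmem119 at 104 to 162 CPM, whereas the macrophage marker Cd163 was at 0.3 CPM or less. In border-associated macrophages Mrc1 lay at 3247 to 3843 CPM and Tmem119, the gene whose promoter drives the recombinase, was at 0 in all 5 libraries. Cgas itself, whose counts do not separate the alleles, measured 83.1 and 87.9 CPM in R241E microglia and 66.7, 72.4 and 74.4 CPM in WT. The genotypes did not overlap and the difference did not pass the test (adjusted p = 0.286, edgeR quasi-likelihood test with Benjamini-Hochberg adjustment over all genes).

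Microglia had the highest mean level of Irf8, Sall1, Mef2a, Mef2c and Ikzf1 among the 10 classes compared. Each class was measured in libraries with at least 20 of its nuclei, except endothelial cells, which were pooled over libraries. Over the 5 libraries, Irf8 averaged 319 ± 33.8 CPM (SD, n = 5) in microglia, against 170 ± 78.1 CPM (n = 4) in monocytes or neutrophils and 130 ± 25.1 CPM (n = 5) in border-associated macrophages. The libraries of the latter 2 classes overlapped. Left out for its 18 nuclei, the monocyte or neutrophil class of WT replicate 1 measured 509 CPM (20 UMIs) of Irf8. That lay above the 277 to 365 CPM of microglia. Sall1 averaged 375 ± 33.0 CPM in microglia and at most 56.2 ± 9.29 CPM (oligodendrocytes) in any other class. No UMI of Sall1 was counted in the 193 lymphocytes, where 3 UMIs would have been 10.2 CPM in the largest library. Mef2a averaged 2755 ± 262 CPM in microglia, above the 1358 ± 81.0 CPM of border-associated macrophages and the 1272 ± 147 CPM of monocytes or neutrophils, which overlapped each other. Ikzf1, needed for lymphocyte development as well, averaged 1116 ± 57.1 CPM in microglia, 723 ± 59.0 CPM (n = 3) in lymphocytes and 385 ± 62.5 CPM in border-associated macrophages. Left out for 7 and 3 nuclei, the lymphocytes of WT replicates 2 and 1 measured 1045 and 557 CPM (13 and 4 UMIs). The microglial libraries lay at 1024 to 1171 CPM.

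Among the remaining members and Mef2c, another class overlapped or exceeded microglia also in libraries with at least 20 nuclei. The class of monocytes or neutrophils was a single cluster (203 nuclei) led by the MHC class II genes Cd74, H2-Aa, H2-Eb1 and H2-Ab1, ahead of Lyz2, S100a9 and S100a8. It had 3 of its own markers and 3 of another class among its top 10 genes, with dendritic cells the next best class. Spi1 was highest in that class (376 ± 41.8 CPM, n = 4), with microglia (262 ± 20.8 CPM) and border-associated macrophages (225 ± 40.7 CPM) overlapping below them. Mef2c did not separate microglia (2057 ± 202 CPM) from border-associated macrophages (1920 ± 138 CPM). Maf was highest in border-associated macrophages (2363 ± 226 CPM), clear of microglia (793 ± 111 CPM), while microglia overlapped monocytes or neutrophils (486 ± 212 CPM) and the latter overlapped fibroblasts (446 ± 115 CPM). Runx1 overlapped between border-associated macrophages (881 ± 99.7 CPM) and microglia (766 ± 84.7 CPM). Fli1, an endothelial as well as a haematopoietic factor, was highest in endothelial cells, where 234 UMIs over all libraries gave 1692 CPM, and reached 1275 ± 156 CPM in border-associated macrophages and 1021 ± 114 CPM in microglia, which overlapped. Only 60 nuclei were endothelial, so that class is given as a pooled value.

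**Figure D1:**
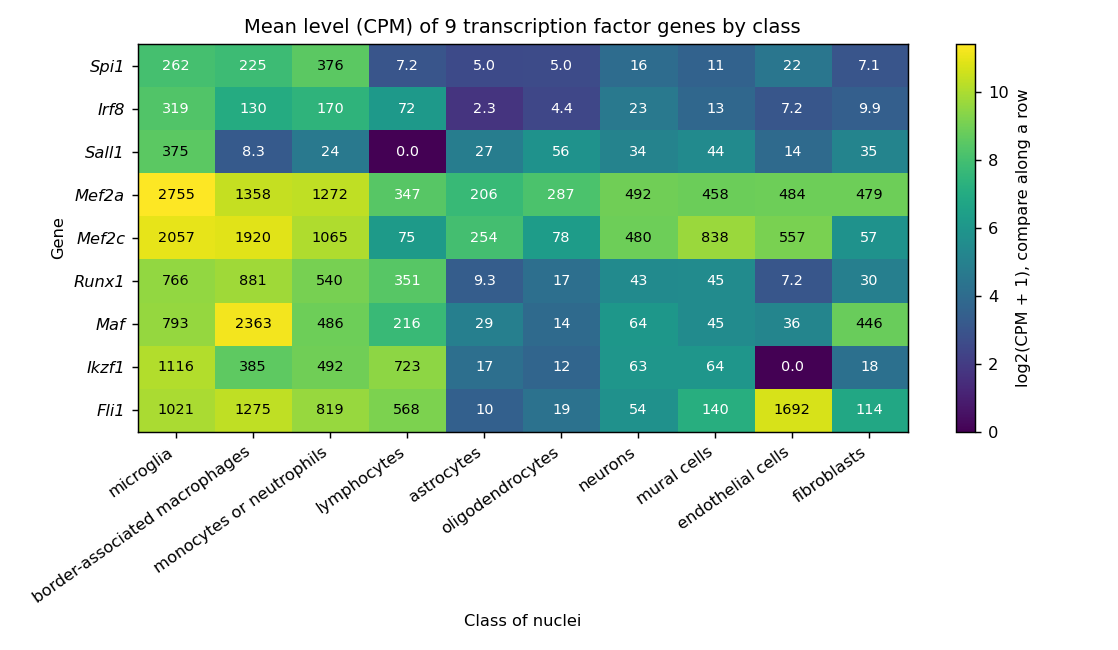
Mean CPM of the 9 genes (rows) in 10 classes of nuclei (columns), as the mean over libraries with at least 20 nuclei of the class, or the pooled value for endothelial cells; colour is log2(CPM + 1). Sall1 stands at 375 CPM in microglia and 8.3 CPM in border-associated macrophages, and Maf at 793 and 2363 CPM.

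Outside the haematopoietic classes the MEF2 genes were counted in several others. Mef2a averaged 206 to 492 CPM in astrocytes, oligodendrocytes, fibroblasts, mural cells and neurons. Mef2c, which also acts in neurons, heart and vessels, averaged 838 ± 150 CPM in mural cells and 480 ± 148 CPM in neurons, but 56.5 ± 17.4 CPM in fibroblasts. Spi1 and Irf8 averaged at most 15.6 and 23.3 CPM in the non-haematopoietic classes with library values, in both cases in neurons. The 15 microglial markers summed to 197 to 1565 CPM in astrocytes, oligodendrocytes, neurons, mural cells and fibroblasts, against 9572 to 11382 CPM in microglia. Their part in these member levels was not tested. In fibroblasts Maf averaged 446 ± 115 CPM. There the 10 markers of border-associated macrophages summed to 809.8 to 1472 CPM, with 3 to 8 of the 10 at 0. In those macrophages they summed to 14539 to 16109.6 CPM. In mural cells, where Maf averaged 44.8 ± 11.9 CPM, they summed to 1161 to 1622 CPM, with 3 to 7 at 0. Their part was not tested either.

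By the profile of mean log2(CPM + 1) over the 10 classes, the 2 genes most like each member were found among 13588 genes reaching 20 CPM in a class. For Spi1 these were Cd68, a lysosomal glycoprotein of macrophages (Pearson r = 0.986), and Ifngr2, a subunit of the interferon gamma receptor (r = 0.98). For Irf8 they were Rnf19b (r = 0.994) and Dock8 (r = 0.986), for Ikzf1 Arhgap4 (r = 0.994) and Rhoh (r = 0.987), and for Mef2a Lysmd4 (r = 0.997) and Ireb2 (r = 0.98). For Runx1 they were Gm2245 (r = 0.994) and Rnf111 (r = 0.986), and for Fli1 Gm27201 (r = 0.985) and Atg5 (r = 0.984). The genes closest to Sall1 (Zfp160, r = 0.96, and Dst, r = 0.94), Maf (Gm15655, r = 0.963, and Canx, r = 0.956) and Mef2c (Plxna4os1, r = 0.949, and D6Wsu163e, r = 0.939) were less alike. These are descriptions over 10 classes drawn from the same libraries.

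Microglia and border-associated macrophages were compared within each library, as the log2 ratio of CPM after adding 5 CPM. Sall1 was the sharpest divider, and Maf ran the other way. Summed over libraries, Sall1 gave 7 UMIs in the 343 nuclei of border-associated macrophages, or 7.43 CPM (at most 4 UMIs in a library, and 0 in WT replicate 1), against 379 CPM in microglia. The ratio of the summed counts was 51.0, with a 95% interval of 24.7 to 127 for counting error. The 15 microglial markers, some of which macrophages share, summed to 3506 to 4678 CPM in border-associated macrophages. Maf was lower in microglia in every library, by log2 ratios of -1.85 and -1.91 in R241E and -1.43, -1.50 and -1.19 in WT (mean -1.58 ± 0.30, SD, n = 5, or 2.98-fold higher in border-associated macrophages).

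Ikzf1, Irf8 and Mef2a were higher in microglia in 5 of 5 libraries, by mean log2 ratios of 1.54 ± 0.25, 1.27 ± 0.22 and 1.01 ± 0.12, or 2.90-, 2.42- and 2.02-fold. Runx1 and Fli1 were lower in microglia in 5 of 5 libraries, by small mean log2 ratios of -0.20 ± 0.15 and -0.32 ± 0.16. Spi1 (0.23 ± 0.24) and Mef2c (0.10 ± 0.18) took both signs. The exact two-sided sign-flip permutation test gave p = 0.063 for each of the 7 members with 1 sign in all libraries, the smallest value that 5 libraries allow, so no ratio could pass 0.05. For Spi1 this exact test gave p = 0.125, and for Mef2c the exact p was 0.375. With nuclei thinned to 1000 UMIs each, the mean log2 ratios of Spi1, Irf8 and Fli1 were 0.62, 0.88 and -0.12, and 5 members in place of 7 had 1 sign in all libraries.

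**Figure D2:**
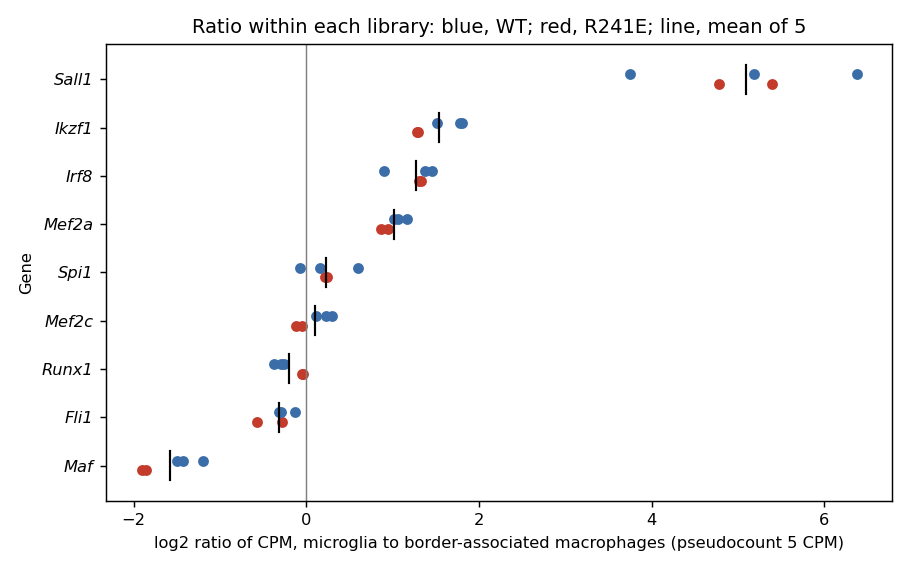
log2 ratio of CPM in microglia to CPM in border-associated macrophages (horizontal, 5 CPM added to each) for the 9 genes; points are libraries, vertical lines the mean of 5. Sall1 lies at 3.75 to 6.38 and Maf at -1.91 to -1.19, on either side of 0.

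The study's design asks how the R241E allele changes microglia. Of the 9 members, Maf alone passed the test in microglia, and it was lower in R241E. Maf measured 666 and 687 CPM in R241E and 818, 897 and 896 CPM in WT. The genotypes did not overlap, and the log2 fold change was -0.38 (SE 0.09, adjusted p = 0.0131, edgeR quasi-likelihood test over 12725 genes). Over all genes tested in microglia, 9.29% were called, 3.25% lower and 6.04% higher, so 1 of 9 is close to the background. The Maf call was lost without R241E replicate 1 (adjusted p = 0.153), R241E replicate 2 (0.0827) or WT replicate 2 (0.103) and with nuclei thinned to 1000 UMIs each (0.0854), in edgeR, while the log2 fold change stayed between -0.42 and -0.30 in these and the other alternatives. Different clusters held most microglia of each genotype: clusters 1, 2 and 4 in R241E (559, 213 and 162 of the 1008 nuclei of replicate 1) and clusters 3 and 5 in WT. The 10 markers of border-associated macrophages, in which Maf is higher, moved with Maf in microglia, summing to 106 and 156 CPM in R241E (1 and 2 of 10 at 0) and 235, 231 and 259 CPM in WT (2, 0 and 0 at 0). Their part in the Maf difference was not tested.

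The MEF2 genes and Sall1 shifted in the same direction by smaller amounts. Mef2c, a factor tied to the resting state of microglia, measured 1869 and 1816 CPM in R241E and 2272, 2170 and 2159 CPM in WT. Mef2a measured 2522 and 2435 CPM in R241E and 3038, 2916 and 2863 CPM in WT. Sall1 measured 334 and 347 CPM in R241E and 410, 399 and 385 CPM in WT. For all 3 genes the R241E values were below every WT value, yet none passed the test: the log2 fold changes were -0.27 (Mef2c, adjusted p = 0.063), -0.26 (Mef2a, 0.0736) and -0.24 (Sall1, 0.131), each with an SE of 0.09. Fli1 measured 944 and 924 CPM in R241E and 1203, 1059 and 973 CPM in WT, with a log2 fold change of -0.23 and an adjusted p of 0.226.

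Irf8 ran the other way, with both R241E values above every WT value. It measured 340.1 and 365 CPM in R241E and 277, 309 and 304 CPM in WT, so that its log2 fold change was 0.22 (SE 0.095, adjusted p = 0.184). Spi1, Runx1 and Ikzf1 overlapped between genotypes. Spi1 measured 257 and 243 CPM in R241E and 280, 288 and 243 CPM in WT. Runx1 measured 845 and 737 CPM in R241E and 809, 807 and 631 CPM in WT, and Ikzf1 1116 and 1110.5 CPM against 1156, 1171 and 1024 CPM. For Ikzf1 the 95% interval of the log2 fold change ran from -0.23 to 0.18, for Runx1 from -0.19 to 0.32 and for Spi1 from -0.36 to 0.10. In all, 6 of 9 members did not overlap between genotypes, 5 lower and 1 higher in R241E, where 38.0% of all genes tested did not overlap. The same 6 had an unadjusted p under 0.05, as had 20.8% of all genes. The median log2 fold change of the members was -0.23, against -0.01 over all genes tested.

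**Figure D3:**
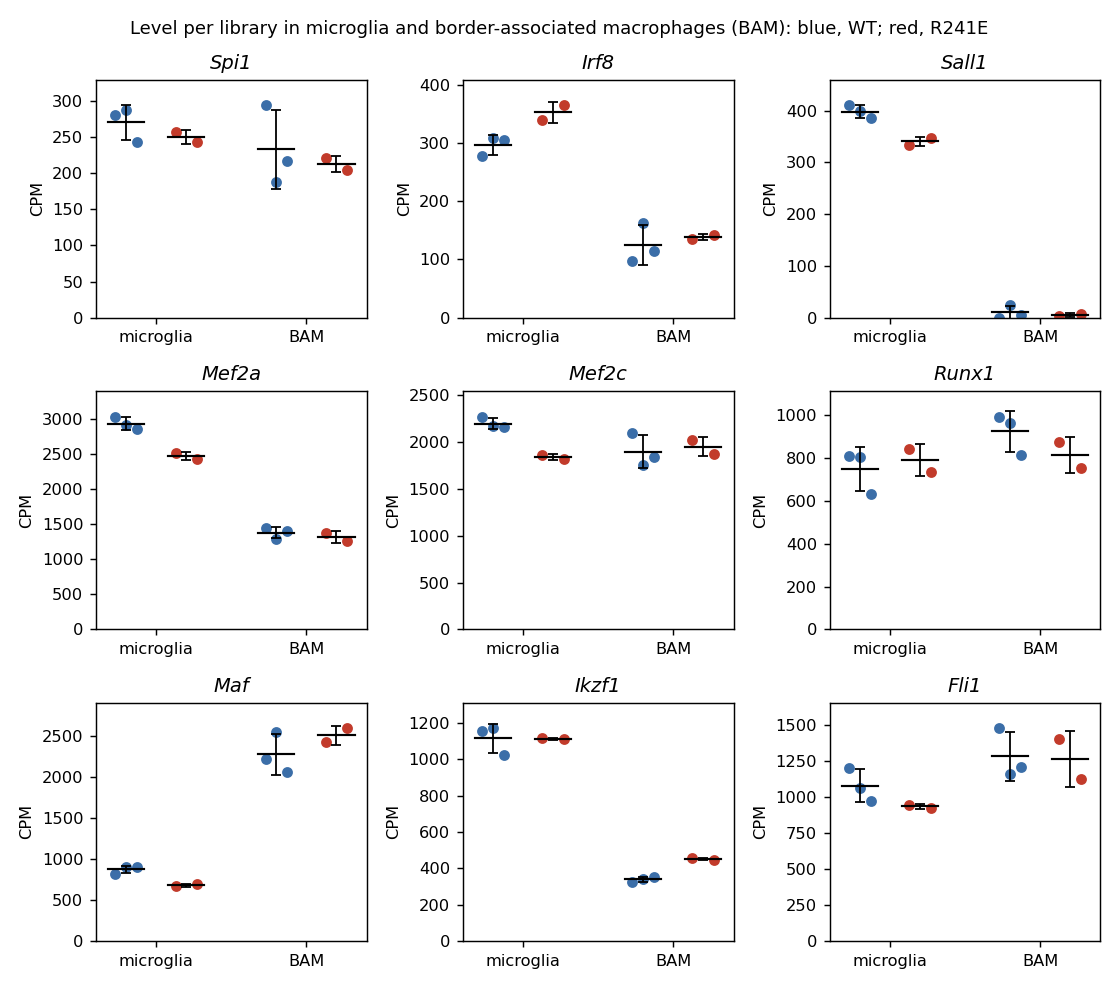
CPM per library (points) in microglia and border-associated macrophages (BAM) for the 9 genes, WT in blue (n = 3) and R241E in red (n = 2); horizontal lines are means and bars are SD. In microglia the Maf points are 666 and 687 CPM in R241E and 818 to 897 CPM in WT.

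The share of microglia with a UMI moved with the level once every nucleus was thinned to 1000 UMIs, which left out 9 to 64 nuclei per library. Maf was counted in 43.9% and 44.8% of R241E microglia and in 48.6% to 53.5% of WT microglia, whereas unthinned shares were 68.3% to 73.4% and 74.7% to 79.5%. Irf8 was counted in 27.7% and 30.5% of R241E microglia and in 24.0% to 24.6% of WT. Mef2a was counted in 86.3% and 87.7% against 91.2% to 93.2%. In oligodendrocytes, which should lack them, thinned shares were at most 1.94% for Maf and 0.84% for Irf8. Mef2a, which is not particular to microglia, was counted in 18.9% to 34.5% of thinned oligodendrocytes. Median depths before thinning were 2062 to 3056 UMIs in microglia and 2409 to 4618.5 UMIs in oligodendrocytes.

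Because R241E microglia carry many interferon-induced transcripts, member levels were also read in microglia split by the UMIs of the study's 28-gene interferon list, which holds no member. After thinning, nuclei with at most 1 such UMI made up 38.7% and 48.4% of R241E microglia and 89.8% to 92.5% of WT microglia. Nuclei with 5 or more made up 22.0% and 16.5% in R241E (220 and 82 nuclei) and under 1% in WT (8, 6 and 8 nuclei), too few for a WT level. In nuclei with at most 1 interferon UMI, Maf measured 709 and 726 CPM in R241E and 813, 907 and 909 CPM in WT. The genotypes did not overlap in these nuclei, and the log2 ratio of the group means was -0.29. Irf7, a gene of the interferon list, still differed in them. It measured 7.42 and 20.7 CPM (9 and 14 UMIs) in R241E. In WT it measured 1.32, 1.29 and 1.71 CPM (3, 5 and 5 UMIs). Few interferon UMIs thus did not mean equal interferon RNA in the genotypes.

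Among these nuclei with few interferon UMIs, Mef2a (2636 and 2498 CPM against 3029.6, 2929.8 and 2875 CPM), Mef2c (1986 and 1950.0 CPM against 2278, 2167 and 2169 CPM) and Sall1 (346 and 369.6 CPM against 411, 399.5 and 392 CPM) also did not overlap. Irf8 did not overlap either and was higher in R241E (315 and 359 CPM against 275, 311 and 306 CPM, log2 ratio 0.18). Spi1, Runx1, Ikzf1 and Fli1 overlapped. The share of all genes without overlap was not computed for these nuclei. Over all microglia it was 38.0%. From nuclei with few to nuclei with 5 or more interferon UMIs, Maf differed further within both R241E libraries, by -0.21 and -0.54 on the log2 scale. Over the same step Mef2c differed by -0.30 and -0.28, Mef2a by -0.17 and -0.15, Sall1 by -0.12 and -0.28, Fli1 by -0.17 and -0.51 and Spi1 by -0.10 and -0.55. Irf8 ran the opposite way, by 0.20 and 0.35, as did Runx1 (0.06 and 0.30) and Ikzf1 (0.06 and 0.20). These splits were chosen on the nuclei themselves and were not tested.

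**Figure D4:**
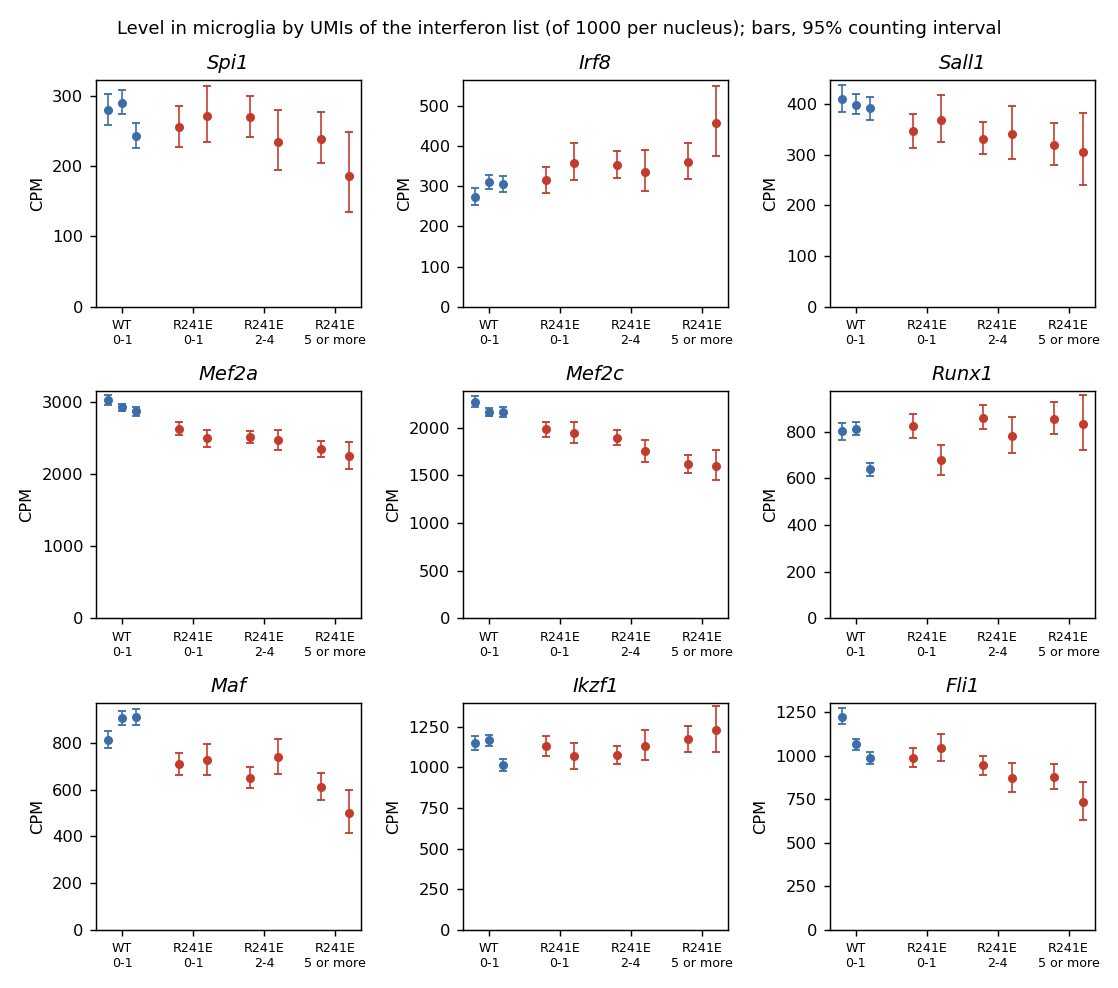
CPM in microglia (vertical) of each gene by genotype and by the number of interferon-list UMIs per nucleus thinned to 1000 UMIs (horizontal); points are libraries and bars the 95% counting interval. Maf goes from 813 to 909 CPM in WT nuclei with few interferon UMIs to 709 and 726 CPM in R241E nuclei with few and 613 and 499 CPM in R241E nuclei with 5 or more.

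The 5 microglial clusters, made without the members, gave a further view. In cluster 5, with 65 and 65 R241E nuclei and 263, 600 and 773 WT nuclei, Maf measured 712 and 729.6 CPM in R241E and 860.0, 915 and 888 CPM in WT. In cluster 4 it measured 695 and 659.6 CPM in R241E and 807 (16 nuclei), 967 and 917 CPM in WT. In cluster 1, which held 747 R241E and 131 WT nuclei, the Maf values of the genotypes overlapped (657 and 768 CPM against 720.2, 663 and 865 CPM). In cluster 3, with 9 and 31 R241E nuclei and 618, 735 and 419 WT nuclei, the Maf values overlapped too. They were 875 and 873 CPM in R241E and 807, 895 and 902 CPM in WT. In cluster 2, led by the interferon-induced genes Ifi204 and Ifi207, Maf was at 617 CPM and Mef2a at 2338 CPM over 311 nuclei, 95.8% of them R241E.

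In border-associated macrophages Maf did not lie lower in R241E. It measured 2419 and 2587 CPM in R241E and 2208, 2544 and 2055 CPM in WT, overlapping, with a log2 fold change of 0.15 (SE 0.14, adjusted p = 0.867). Mef2c measured 2027 and 1879 CPM against 2097, 1761 and 1838 CPM, also overlapping. None of the 8 members tested passed in edgeR or DESeq2, where edgeR called 0.937% of 3947 genes, and 1 (Ikzf1) had an unadjusted p under 0.05, as had 8.18% of all genes. Sall1 was too low to test. Ikzf1 alone did not overlap, at 456 and 448 CPM in R241E and 327, 338 and 354 CPM in WT (log2 fold change 0.42, SE 0.20, adjusted p = 0.591), where 23.7% of all genes tested did not overlap. These pools held 44 to 105 nuclei per library, so the intervals are wide: that of Mef2a ran from -0.36 to 0.26 and that of Irf8 from -0.49 to 0.78.

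The difference between the 2 classes was tested itself, as a class by genotype term with library as a block. Maf passed: its log2 fold change was 0.56 higher in border-associated macrophages than in microglia (95% interval 0.25 to 0.86, adjusted p = 0.0451), where 0.788% of 10916 genes were called. This call was lost without any 1 of the 5 libraries (adjusted p 0.108 to 0.391), with DESeq2 size factors (0.0559) and without the highest doublet scores (0.0538), while the term stayed between 0.50 and 0.62. For Mef2c (0.36) and Ikzf1 (0.47) the term had an adjusted p of 0.594 each, and for the other members of 0.877 or more. The study describes expression of the allele as largely confined to microglia and brain macrophages. In R241E border-associated macrophages, Cgas measured 58.2 and 62.9 CPM (19 and 8 UMIs). In WT it measured 19.6, 18.8 and 22.8 CPM (3, 3 and 4 UMIs). The genotypes did not overlap, as was so for 23.7% of all genes tested in this class. Whether the recombinase acted in these macrophages, where Tmem119 was at 0, cannot be read from these counts, which do not separate the alleles.

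**Figure D5:**
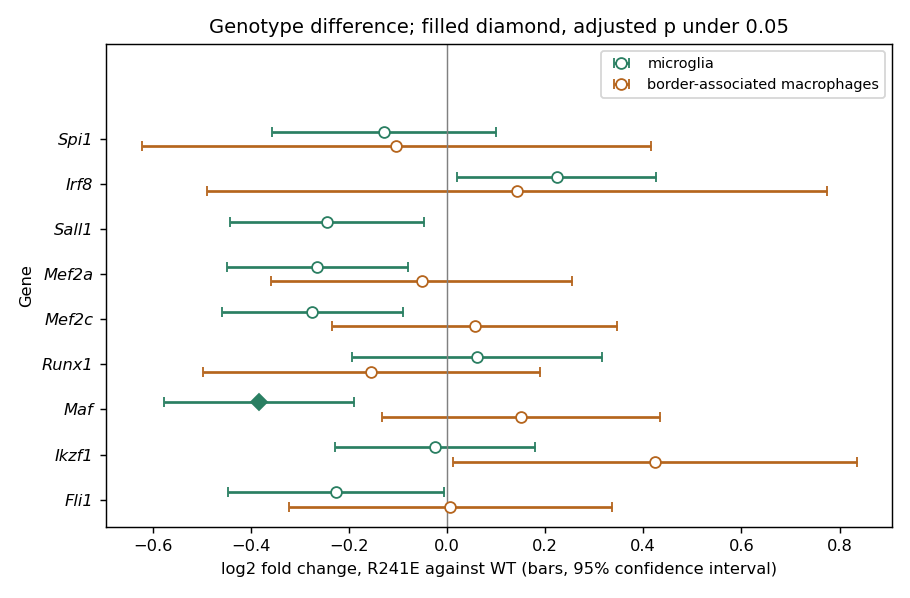
log2 fold change, R241E against WT (horizontal, bars are 95% confidence intervals), of the 9 genes in microglia and in border-associated macrophages; Sall1 was not tested in the latter. Maf in microglia, at -0.38, is the one filled diamond (adjusted p under 0.05).

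Astrocytes, oligodendrocytes, mural cells and neurons also had 20 or more nuclei per library, and no member passed there in 22 tests by edgeR or DESeq2. Of all genes, edgeR called 0.497% in astrocytes, 0.224% in oligodendrocytes, 0.00% in mural cells and 0.0112% in neurons. An unadjusted p under 0.05 was seen for 4 members, all in neurons, and for 9.35%, 4.94%, 4.51% and 8.41% of all genes in these classes. The genotypes did not overlap for Mef2a in oligodendrocytes and for Irf8, Maf, Sall1 and Mef2c in neurons, each lower in R241E, against 23.8%, 18.5%, 18.5% and 23.5% of all genes in the 4 classes. Maf measured 23.1 and 31.3 CPM in R241E neurons and 54.4, 64.7 and 149 CPM in WT (log2 fold change -1.67, adjusted p = 0.322, edgeR), a difference that edgeR called without a filter on low counts (adjusted p = 0.000963). Irf8 measured 4.96 and 5.53 CPM in R241E neurons and 7.99, 43.2 and 55.1 CPM in WT. The 15 microglial markers summed to 441 and 618 CPM in R241E neurons and 532, 1109 and 1503 CPM in WT, with at most 1 marker at 0. Of the 9 members, 0 were higher in R241E neurons, with a median log2 fold change of -1.13, against -0.01 over all genes tested. The marker sums overlapped between genotypes only where R241E replicate 2 lay above WT replicate 1. Their part in the neuronal values was not tested. The genotypes also differed in which clusters held their neurons. Cluster 19, led by Nxph1, held 2 and 5 R241E nuclei and 147, 14 and 22 WT nuclei, cluster 10 held 13 and 46 R241E nuclei and 1, 3 and 1 WT nuclei, and cluster 20 held 19 WT nuclei and none of R241E. Kinds of neuron and genotype therefore cannot be told apart in these sums.

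Relatives, partners and signal-dependent factors in microglia give the setting of these values. Runx2, a relative of Runx1 better known from bone, fell from 135, 121 and 124 CPM in WT to 101 and 92.7 CPM in R241E (log2 fold change -0.39, SE 0.11, adjusted p = 0.0408). This call was lost without any 1 of 4 libraries, every one but WT replicate 3 (adjusted p 0.0967 to 0.236), by DESeq2 (0.14) and after thinning (0.121).

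Of 25 partners and upstream regulators, 23 were tested, 3 rose and 1 fell, where 6.04% of all genes were called higher and 3.25% lower. Cebpa, a myeloid partner of PU.1, rose from 19.8, 23.3 and 28.5 CPM to 35.4 and 42.9 CPM (log2 fold change 0.66, adjusted p = 0.0355). Klf6, a zinc finger factor of activated macrophages, rose by 0.61 (adjusted p = 0.0301) and Bhlhe41, a repressor of tissue macrophages, by 0.45 (adjusted p = 0.0214). Tal1, a blood progenitor factor, fell from 107, 94.1 and 90.6 CPM to 64.6 and 68.5 CPM (-0.57, adjusted p = 0.00891). Without R241E replicate 1 none of the 4 was called (adjusted p 0.0988 to 0.308), and leaving out R241E replicate 2, WT replicate 1 or WT replicate 2 ended the calls of Cebpa, Klf6 and Bhlhe41 (0.0582 to 0.201). Thinning ended the calls of Tal1, Cebpa and Klf6 (0.0526 to 0.0664), and DESeq2 those of Cebpa and Klf6 (0.116 and 0.0982).

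Among the IRF and STAT factors, 4 that rose are described here, of which the study's interferon list also holds Irf7 and Stat2. Irf7, which amplifies type I interferon, rose from 3.6, 4.4 and 4.2 CPM in WT to 46.1 and 52.6 CPM in R241E (log2 fold change 3.53, adjusted p = 2.38e-08). Stat2 rose by 2.35 (adjusted p = 5.85e-09), Irf9 by 1.10 (adjusted p = 1.47e-05) and Irf1 by 1.32 (adjusted p = 2.33e-05). These 4 calls held in 13 of 13 alternatives. Irf8, of the same family, had a log2 fold change of 0.22 that did not pass.

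Elsewhere Irf9 also rose in astrocytes (adjusted p = 0.0488), and Irf9 and Stat2 rose in oligodendrocytes (0.0348 and 0.0234, edgeR). Whether these astrocyte and oligodendrocyte calls hold in the alternatives was not examined. Of 22 AP-1, NF-kB and early response factors 16 were tested in microglia, of which 2 rose and none fell. Over all genes tested in microglia, 6.04% were called higher and 3.25% lower. The 2 listed factors that rose were Junb (log2 fold change 0.42, adjusted p = 0.0375, edgeR) and Nfe2l2, the regulator of antioxidant genes (0.37, adjusted p = 0.0236, edgeR). Both calls were lost without any 1 of 4 libraries, every one but WT replicate 3, by DESeq2 and after thinning (adjusted p 0.0541 to 0.296 over these).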

How the data were processed

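Sorted nuclei of 5 mice were sequenced. The authors deposited raw UMI counts for each gene in each nucleus, made with Cell Ranger 7.0.0 against mouse assembly mm10. Whether intronic reads were counted is not given in the sources used here. Groups came from the sample titles. A nucleus was kept if it had 200 to 4500 genes (the upper limit not included), UMIs below 10000 and a mitochondrial share below 5%, as the study's methods state. Nuclei were clustered together in scanpy 1.11.5 (3000 variable genes without the members and listed factors, 30 principal components, 20 neighbours, Leiden resolution 1, no integration), giving 25 clusters. A cluster took the class of highest mean log2 fold of its markers (at least 2, with 3 markers and 50% of the class's markers each seen in 10% of nuclei), a rule set after the clusters were seen. It left 195 nuclei unnamed, 5.70% of R241E replicate 1 and 0.579% to 1.30% of the other libraries. Class names mean resemblance and were rebuilt from counts. Fibroblasts were given by level only, because 1 of their clusters was led by another class's marker. Doublets were handled by the upper limits. Scrublet marked 0.494% of nuclei (47), a share at which it cannot be said to have worked, so the highest scores (156 nuclei) were left out as an alternative. Libraries shared 13 barcodes.

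Because nuclei of 1 mouse are not replicates, each class was summed within each library. R241E was tested against WT by edgeR's quasi-likelihood test (edgeR 4.0.16, R 4.3.3, TMM, filterByExpr) with Benjamini-Hochberg adjustment over all genes, called at an adjusted p under 0.05. On simulated counts the scripts were checked to recover known changes. Alternatives were DESeq2 1.42.0 and its size factors, no filter, a replicate block, other clusterings, thinning to 1000 UMIs and leaving out each library. Intervals on counts cover counting error only, at 95%. The members, gene lists and tests were chosen with earlier results of these data known. All members, the called genes of each list with the smallest adjusted p (up to 5), the 2 genes most like each member over classes and Cgas were named. The called genes of the IRF and STAT list outside microglia were named after their values were seen. Results for 2 items of these lists are not reported here.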

Additional observations from a re-analysis of the deposited data

Results flagged for a closer look

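The genotype difference of Maf differed between classes: it was 0.56 higher on the log2 scale in border-associated macrophages than in microglia, by the class by genotype term of edgeR (adjusted p = 0.0451), with the limits given beside that value.

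The log2 ratio of microglia to border-associated macrophages for Irf8 was 0.90 in WT replicate 2 and 1.30 to 1.46 in the other 4 libraries, which put it apart by Dixon's criterion. Chance flags about 1 in 20 such groups, and 9 ratios were examined. Irf8 measured 163 CPM in the border-associated macrophages of that library and 98.0 to 142 CPM in the others.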

How the results depend on the processing

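Of the genes called in microglia, 1182 in the main test, 712 were called after thinning to 1000 UMIs and 537 to 1533 with 1 library left out. In border-associated macrophages, 37 genes in the main test became 70 without a filter on low counts, 5 by DESeq2, 14 after thinning and 6 to 44 with 1 library left out. Of the members in microglia, 1 in the main test (Maf) became 3 without a filter (Maf, Mef2a and Mef2c), 0 after thinning and 0 to 5 with 1 library left out (5 without WT replicate 3, when Mef2a, Mef2c, Sall1 and Fli1 joined Maf). Without a filter, 2 members were called in other classes (Irf8 and Maf, in neurons). The class by genotype call was lost, to 0 members, with DESeq2 size factors, without the highest doublet scores and with any library left out. The cause was not tested. Where 1 library was left in R241E, it was assumed to vary like the others.

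With the mouse number as a replicate block, 2069 genes were called in microglia and 66 in border-associated macrophages, and 5 members in microglia (Maf, Mef2a, Mef2c, Sall1 and Fli1, all lower). The labels do not say that equal numbers mark a pair, and 2 pairs exist, so the block was not read as a pairing. The deviations of equally numbered libraries from their genotype mean correlated at 0.0994 and -0.0191. With 2 R241E libraries, their deviations mirror each other, so these correlations cannot decide whether the numbers mark pairs.

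Values that changed sign were small and not called: under the block, Runx1 in microglia (-0.064) and Fli1 in border-associated macrophages (-0.047). There, Fli1 was -0.022 without the highest doublet scores and -0.19 after thinning, and Mef2a 0.014 after thinning. The Irf8 class by genotype term was 0.022 without the highest doublet scores. With 1 library left out, log2 fold changes ranged from -0.053 to 0.16 for Runx1 and -0.0875 to 0.022 for Ikzf1 in microglia. In border-associated macrophages they ranged from -0.23 to 0.092 for Spi1, -0.13 to 0.025 for Mef2a, -0.0031 to 0.13 for Mef2c and -0.18 to 0.16 for Fli1. The class by genotype term ranged from -0.14 to 0.20 for Spi1, -0.14 to 0.16 for Irf8 and -1.48 to 0.81 for Sall1, whose 7 UMIs limit it. The Sall1 log2 ratio of microglia to border-associated macrophages was 5.10 with 5 CPM added and 6.03 with 1 CPM. The alternatives for the factors named outside the members, and for Cgas, were chosen after seeing the data.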
